A study of Arabidopsis thaliana with 8 samples.

Results

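The transcript response to heat was described in shoots of an hsa32 knockout of Arabidopsis thaliana (ecotype Col-0). The comparison used every array whose title named a knockout shoot, 2 heated at 37 °C and 2 held at 22 °C as controls, which makes 4 of the 8 arrays of the study. The knockout line, GABI-268A08, carries a T-DNA insertion in HSA32 (AT4G21320), so a single allele stood for the loss of the gene. Its seedlings were 15 days old and were treated for 2 h and harvested at once. Each array read whole shoots pooled from about 100 plants, and the 2 replicates of a condition were separate biological samples. The other 4 arrays held wild-type shoots of the same ecotype and age under the same treatments. They entered the fit for its estimate of the spread and served as the comparison.

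Heat unfolds proteins, and plant cells answer it with a transcriptional programme run by heat shock factors. These factors raise the genes of small heat shock proteins, which hold unfolded proteins in solution, and of the HSP70, HSP90 and HSP100 chaperones with their cochaperones, which refold or dissolve them. The HSA32 protein itself is needed for acquired thermotolerance to last, that is, for the protection that a first mild heat treatment leaves behind.

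Signals are deposited array intensities on a linear scale, and levels of different probe sets were not set against each other. A change is the difference of group means on the log2(signal + 29) scale, 37 °C minus 22 °C, ± its standard error (SE, n = 2 against 2), and on this scale changes of dim transcripts are understated. A gene rose, fell or passed when limma gave an adjusted p under 0.05 over all 15919 probe sets tested. In bulk shoots, fewer cells of a type and less RNA per cell cannot be told apart. Array medians ranged from 131 to 181, and replicates correlated across probe sets at 0.944 (control) and 0.949 (heat) in the knockout. The arrays of wild-type replicate 1 stood apart from the other 6 on the second principal component. They take part in every test through the shared spread, and without both of them 2424 probe sets passed for heat in the knockout in place of 1080.

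The tissue label was set against marker genes. RCA, the Rubisco activase of leaves and the only shoot marker with a named probe set, read 21393 and 16146 at 22 °C and 36539 and 21718 at 37 °C. Of 2 root markers, the expansin gene EXPA18 read 144 and 96.0 at 22 °C and 81.1 and 78.6 at 37 °C and EXPA7 read 79.1 and 27.2 at 22 °C and 16.6 and 11.3 at 37 °C. The summed root marker signal was 224 and 123 in the controls and 97.7 and 89.9 after heat. Its part in the results was not tested. No seed or flower marker had a named probe set.

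The targeted gene was examined first. HSA32 read 1125 and 1247 at 22 °C and 378 and 589 at 37 °C in the knockout, a change of -1.27 ± 0.57 (adjusted p = 0.22) that did not pass. Both heated arrays lay under both controls, an order seen in 40.9% of all tested probe sets. In wild type the same probe set read 657 and 230.0 at 22 °C and 23175 and 9240 at 37 °C. The wild-type change was 5.12 ± 0.57 (adjusted p = 0.0016), and both heated wild-type arrays lay above both heated knockout arrays, the order the knockout label gives. The difference of the heat changes was -6.39 (unadjusted p = 2.6e-05, adjusted p = 0.42). At 22 °C the knockout arrays read above the wild-type arrays. The sources used here do not place the probe set before or after the T-DNA, so loss of the whole transcript was not checked.

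Heat in the knockout changed 1080 of 15919 tested probe sets (6.78%), with 498 higher (3.13%) and 582 lower (3.66%). In 0 of the 1080 did the heated arrays overlap the controls, so separate groups add nothing to a call. The rises were the larger changes. Their median was 2.74, 128 of them reached 4 and 52 reached 6, whereas the falls had a median of -1.89, 8 reached -4 and 0 reached -6. Of the 52 rises of at least 6, all 52 also passed in wild type. Heat replicate 1 read higher than heat replicate 2 in 47 of these 52, against 212 of all 498 rises. The median change of all tested probe sets was -0.26, and calls higher made up 46.1% of all calls as deposited, 62.0% after quantile normalization and 73.2% after centring each array on its median. Which direction held more calls thus depended on the scaling. Counts depended further on the arrays in the fit. Without knockout control replicate 1, control replicate 2, heat replicate 1 or heat replicate 2 the counts were 230, 240, 279 and 280, of which 204, 206, 230 and 210 were higher.

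**Figure D1:**
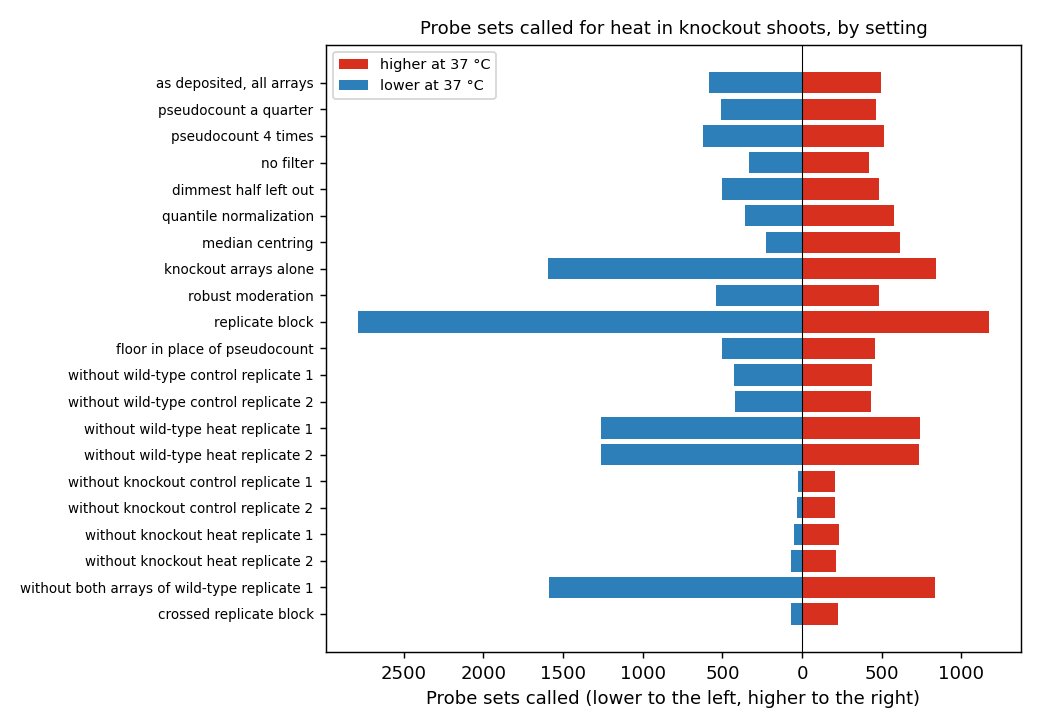
Number of probe sets that passed for heat in knockout shoots under each setting, with those higher at 37 °C drawn to the right and those lower to the left on one linear count axis. The top bar is the result as reported, 498 higher and 582 lower, and the numbers of falls vary more between settings than the numbers of rises.

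Of the 1080 probe sets, 532 read a single annotated gene (253 higher, 279 lower) and 548 had none or several. Among the 532, 452 carried a locus number in place of a gene symbol. Functions are therefore given through lists of gene families, which hold only the genes that the annotation names or that were entered by locus. Every count of list members is to be read beside the 3.13% higher and 3.66% lower of all tested probe sets. Counts of members whose heated arrays lay apart from the controls include untested members. The shares printed beside those counts cover tested probe sets only. Loci printed without a symbol have no name in the tables used here and were placed in their list from general knowledge.

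Of the 15 largest rises among genes with a single annotation, 6 were small heat shock proteins. Of 10 members, all tested, 8 rose and 0 fell, against 3.13% and 3.66% of all tested probe sets. Their median change was 8.15, against -0.26 for all tested probe sets. AT1G52560 read 1.20 and 3.30 at 22 °C and 37296 and 23162 at 37 °C. Its change of 9.88 ± 0.37 (adjusted p = 7.2e-06) was the largest of all probe sets with a single gene. The controls were near the lowest signals on the arrays, under the pseudocount, so the size of this change depends on that offset. AT2G29500 read 49.0 and 47.0 at 22 °C and 43365 and 25046 at 37 °C, a rise of 8.74 ± 0.36 (adjusted p = 1e-05). AT1G53540 read 77.4 and 58.1 at 22 °C and 48091 and 27069.6 at 37 °C, a rise of 8.55 ± 0.41 (adjusted p = 1.5e-05). ATHSP22.0 (AT4G10250), a small heat shock protein of the endoplasmic reticulum, read 134 and 76.3 at 22 °C and 40706 and 25086 at 37 °C and rose by 7.93 ± 0.51 (adjusted p = 6.2e-05). AT5G51440 read 34.1 and 39.3 at 22 °C and 26959 and 20186 at 37 °C, with a rise of 8.47 ± 0.55 (adjusted p = 6.5e-05). Every heated array of these genes lay far above every control array.

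Of the remaining members, AT2G19310 read 912 and 329.9 in the controls, reached 33366 and 21499.9 after heat and rose by 5.53 ± 0.54 (adjusted p = 0.00057). AT1G54050 and AT5G37670 rose by 7.02 and 8.37. The members that did not pass were AT5G54660, at 115 and 95.9 at 22 °C and 129 and 159 at 37 °C with a change of 0.36, and AT4G21870, at 2957 and 2516 at 22 °C and 733 and 984 at 37 °C with a change of -1.65 ± 0.71 (adjusted p = 0.2). AT4G21870 had its heated arrays under both controls, as had 40.9% of all tested probe sets. The count of 8 risers was the same with any 1 array left out and under every other setting tried.

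The HSP70 family, whose proteins bind and release exposed segments of unfolded chains in a cycle powered by ATP, rose in 4 of 4 members. Their median was 3.53. AT3G09440 read 196 and 369.6 at 22 °C and 29134 and 20926 at 37 °C and rose by 6.37 ± 0.50 (adjusted p = 0.00017). Hsp70-2 (AT5G02490) read 44.4 and 152 at 22 °C and 2532 and 2095 at 37 °C, a rise of 4.34 ± 0.60 (adjusted p = 0.0045). In both genes the heated arrays lay far above the controls. AT1G11660 read 194 and 445 at 22 °C and 1309 and 3376 at 37 °C and AT4G16660 104 and 156 at 22 °C and 474 and 1494 at 37 °C, with rises of 2.71 ± 0.61 (adjusted p = 0.035) and 2.48 ± 0.55 (adjusted p = 0.034). In this pair replicate 2 read higher than replicate 1 in both conditions. Their calls were lost in 7 and 5 of 20 other settings, against 1 for Hsp70-2 and 0 for AT3G09440. The number of HSP70 members that rose was 1, 2, 3 and 2 without knockout control replicate 1, control replicate 2, heat replicate 1 or heat replicate 2. Of 3 members of the HSP100 and Clp list, 2 were tested and neither passed, with CLPP4 at 0.54 and NCLPP7 at -0.22, both subunits of organelle proteases. No HSP90 gene and no heat shock factor had a named probe set.

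Cochaperones rose in 6 of 10 members, all tested, and 1 fell, with a median of 4.37. Hop3 (AT4G12400), an adaptor that links HSP70 to HSP90, read 36.1 and 81.9 at 22 °C and 20842 and 19552 at 37 °C and rose by 7.89 ± 0.51 (adjusted p = 6.5e-05). Hop2, another adaptor of this kind, read 462 and 439 at 22 °C and 8153 and 9283 at 37 °C and rose by 4.19 ± 0.41 (adjusted p = 0.00058). Hop1, the third, read 274 and 422 at 22 °C and 393 and 412 at 37 °C and did not pass (0.22). The Hop genes therefore ran from no call to one of the highest rises. Fes1A, which acts on nucleotide exchange of HSP70, read 244 and 241 at 22 °C and 29490.4 and 20883 at 37 °C and rose by 6.52 ± 0.53 (adjusted p = 0.00021). Its relative Fes1B read 784 and 932 at 22 °C and 253 and 266 at 37 °C, a change of -1.62 ± 0.38 (adjusted p = 0.04), so both heated arrays lay under both controls, and Fes1C did not pass at -0.30. The fall of Fes1B lost its call when any 1 knockout array was left out. BOB1 (BOBBER1), a NudC-domain chaperone, rose by 5.10 ± 0.41 (adjusted p = 0.0002), from 194 and 230.1 to 7250.3 and 9297. SGT1A, a cochaperone of HSP90, rose by 4.55 ± 0.44 (adjusted p = 0.00055), from 634 and 747 to 18138 and 15577. AT3G12050 rose by 4.77, and AT4G02450 did not pass at 0.55.

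J-domain proteins deliver substrates to HSP70 and switch on its ATPase. Of 13 members 11 were tested, 3 rose and 1 fell, and the median was 0.01. AT2G20560 read 9.50 and 11.4 at 22 °C and 21248 and 18092 at 37 °C and rose by 8.96 ± 0.61 (adjusted p = 8.3e-05). AT1G71000 read 13.9 and 4.70 at 22 °C and 18806 and 13504 at 37 °C and rose by 8.71 ± 0.48 (adjusted p = 2.7e-05). Both were under the offset of 29 in the controls. AT4G28480 rose from 273 and 286 to 2746 and 2495, by 3.1 ± 0.36 (adjusted p = 0.0017). AT3G47940 fell, with 334 and 452 at 22 °C and 107 and 160.5 at 37 °C and a change of -1.38 ± 0.33 (adjusted p = 0.041), a call lost when any 1 knockout array was left out. The J-domain genes of the endoplasmic reticulum ATERDJ2A (-0.69), ATERDJ2B (0.01) and ATERDJ3B (0.66) did not pass.

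Peptidyl-prolyl isomerases, which turn proline bonds in folding chains, had 2 risers among 5 members. The FKBP-type gene ROF2 (AT5G48570) read 43.2 and 77.9 at 22 °C and 38482 and 27938 at 37 °C and rose by 8.55 ± 0.43 (adjusted p = 1.7e-05). SQN (SQUINT), the plant cyclophilin 40, read 57.4 and 83.6 at 22 °C and 576 and 1044 at 37 °C and rose by 3.03 ± 0.38 (adjusted p = 0.0024). CYP59 (-0.39) and CYP71 (0.01) did not pass. Among 5 chaperonin genes 4 were tested and 1 rose. Cpn60beta2, a subunit of the chloroplast chaperonin, read 185 and 517 at 22 °C and 21289 and 20566 at 37 °C and rose by 5.94 ± 0.61 (adjusted p = 0.00078), whereas its relatives Cpn60beta3 (1.47) and Cpn60beta4 (0.00) did not pass. In the list of protein folding in the endoplasmic reticulum, 1 of 6 rose. That gene was BZIP28, a membrane-bound transcription factor of the unfolded protein response, at 440.3 and 717 at 22 °C and 2671 and 3634 at 37 °C, with a rise of 2.41 ± 0.37 (adjusted p = 0.0074). Its relatives BZIP17 (0.23) and BZIP60 (-0.63) did not pass, nor did the calreticulin gene CRT1b (0.04).

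**Figure D2:**
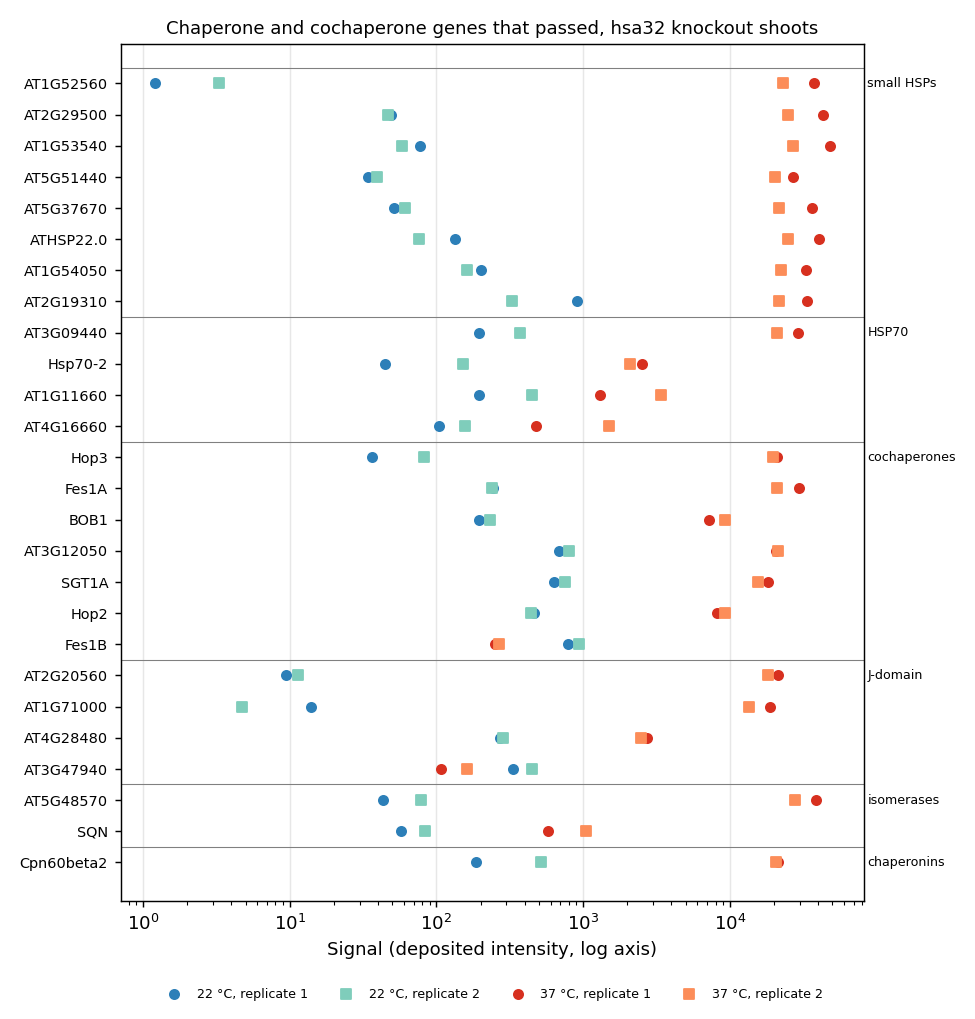
Signal on each of the 4 knockout arrays for the chaperone, cochaperone, J-domain, isomerase and chaperonin genes that passed, on a log axis of deposited intensity, with 1 row per gene and 1 point per array. In every row the 2 heated arrays lie on one side of both controls, as they do for every probe set that passed. Fes1B and AT3G47940 are the only genes lower after heat, and the controls of AT1G52560 are at 1.20 and 3.30.

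Beyond the chaperones, the 15 largest rises among genes with a single annotation included AT1G21550 (8.60 ± 0.58 (adjusted p = 8.3e-05)), AT5G07330 (8.07), AT1G30070 (7.48), AT4G23493 (7.30) and AT1G72660 (7.22), which the tables give no name. AT1G21550 read 28.5 and 11.1 at 22 °C and 24998 and 13870.5 at 37 °C and AT1G30070 105 and 116 at 22 °C and 29104 and 21064 at 37 °C. In both genes the heated arrays lay far above the controls. Probe sets without a single gene reached a rise of 9.97.

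Among genes with a symbol that lay outside the lists and the 15 largest changes in each direction, 28 passed, 11 higher and 17 lower. They were described after their values had been seen. DER1 (DERLIN-1), part of the machinery that removes misfolded proteins from the endoplasmic reticulum, read 328 and 374 at 22 °C and 7764 and 6418 at 37 °C and rose by 4.23 ± 0.41 (adjusted p = 0.00055). CYTC-2, a cytochrome c of the mitochondrial electron chain, read 508 and 336 at 22 °C and 7445 and 4506 at 37 °C and rose by 3.72 ± 0.43 (adjusted p = 0.0016). TIL, a temperature-induced lipocalin of membranes, read 4528 and 2404 at 22 °C and 43328 and 24835 at 37 °C and rose by 3.30 ± 0.41 (adjusted p = 0.0022). In all 3 the groups were far apart. The SKP1-like ubiquitin ligase subunit SK18 rose by 2.68, AOR, a reductase of reactive carbonyls, by 2.31, and PCME, an isoprenylcysteine methylesterase, by 2.65. Smaller rises were those of SRC2, a cold-regulated gene, at 1.87, LPA19, an assembly factor of photosystem II, at 1.52, and FaTA, an acyl-carrier protein thioesterase, at 1.46.

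Transcripts of the mitochondrial genome read higher after heat. Of 15 genes 14 were tested, 9 rose and 0 fell, with a median of 2.98 in the knockout and 2.31 in wild type, where 2 rose. In 13 of 15 the heated arrays lay above both controls, against 18.0% of all tested probe sets. The gene nad6, for a subunit of respiratory complex I, read 234 and 74.2 at 22 °C and 10082 and 5419 at 37 °C and rose by 5.49 ± 1.05 (adjusted p = 0.019). Another complex I gene, nad9, read 226 and 268 at 22 °C and 2381 and 1946 at 37 °C and rose by 2.98 ± 0.43 (adjusted p = 0.0054). The cytochrome oxidase gene cox1 read 790.4 and 480.5 at 22 °C and 6449 and 3647 at 37 °C and rose by 2.92 ± 0.67 (adjusted p = 0.038). All heated arrays of these genes lay above the controls, and heat replicate 1 read higher than heat replicate 2. That order of the heat replicates held in 14 of the 15 genes, beside 212 of the 498 probe sets that rose. Wild-type heat replicates 1 and 2 read 627 and 9378 for nad6, 719 and 1670 for nad9 and 1458 and 6520 for cox1. The wild-type changes of these genes thus rest on heated replicates that lay far apart. The remaining named risers were nad5 (4.38), ccb203 (4.28), a cytochrome c maturation gene, and matR (2.87), a maturase gene. The count was sensitive to single arrays, with 1, 1, 0 and 2 risers without knockout control replicate 1, control replicate 2, heat replicate 1 or heat replicate 2. Part of the mitochondrial genome has a near-identical copy on a nuclear chromosome, and 4 of the 15 probe sets were of the type that reads more than 1 transcript, so the source of these signals is uncertain.

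Plastid transcripts gave a different count. Among 69 plastid-encoded genes 68 were tested, 0 rose and 1 fell, with a median of 0.21. The ribosomal protein gene rps18 read 4739 and 2662 at 22 °C and 960.1 and 530.5 at 37 °C and had a change of -2.27 ± 0.46 (adjusted p = 0.025). Its heated arrays lay under both controls. Over the tested members the median was 0.22 as deposited and -0.12 after quantile normalization, so no direction is given for the list. Of the nuclear photosynthesis genes 0 of 10 passed, and their median was 0.42 as deposited and -0.23 after quantile normalization. PSAE-1, a subunit of photosystem I, read 23659 and 16115 at 22 °C and 36670.3 and 24167 at 37 °C. Heat replicate 2 lay only just above control replicate 1.

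The falls had no list with most of its tested members called. Ubiquitin ligases of the RING and U-box type, which mark proteins for degradation, had 2 fallers and 0 risers among 11 tested of 13 (median -0.89). Of all tested probe sets, 3.66% fell and 3.13% rose. ATL8 (AT1G76410), a RING-type ligase, read 4952 and 2527 at 22 °C and 158 and 95.6 at 37 °C. Its change of -4.55 ± 0.79 (adjusted p = 0.013) was the largest fall on this scale among genes with a single annotation that passed. BRH1, a brassinosteroid-responsive RING-H2 gene, read 5919 and 2718 at 22 °C and 494 and 262 at 37 °C, with a change of -3.37 ± 0.50 (adjusted p = 0.0063). In both genes replicate 1 read above replicate 2 at either temperature, and the groups did not overlap, as for every probe set that passed. In 9 of the 13 members both heated arrays lay under both controls, against 40.9% of all tested probe sets.

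GAT1_2.1, a class I glutamine amidotransferase-like gene of nitrogen metabolism, read 1043 and 673 at 22 °C and 17.9 and 19.8 at 37 °C, with a change of -4.18 ± 0.61 (adjusted p = 0.0057). AT5G57760 read 1171 and 1664 at 22 °C and 83.8 and 95.8 at 37 °C, with a change of -3.59 ± 0.55 (adjusted p = 0.0069). AT2G28200 read 1181 and 1090.5 at 22 °C and 127 and 111 at 37 °C, with a change of -2.98 ± 0.30 (adjusted p = 0.00068). Replicates of AT2G28200 lay close together in both conditions. It was the only one of the 38 named genes that fell to pass under all 20 other settings. AT4G28240 (-3.46), AT4G01330 (-3.20), AT5G50180 (-3.05), AT1G19380 (-3.01), AT1G06760 (-2.96), AT1G01300 (-2.86), AT1G36940 (-2.83), AT1G25400 (-2.83) and AT3G15630 (-2.80) made up the other falls among the 15 largest that have no symbol. Their adjusted p ranged from 0.0052 to 0.046. Few calls of named falls held with 1 knockout array fewer. Without knockout control replicate 1, control replicate 2, heat replicate 1 or heat replicate 2, 36, 35, 36 and 34 of the 38 lost their call, against 19, 17, 15 and 17 of the 46 named genes that rose.

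**Figure D3:**
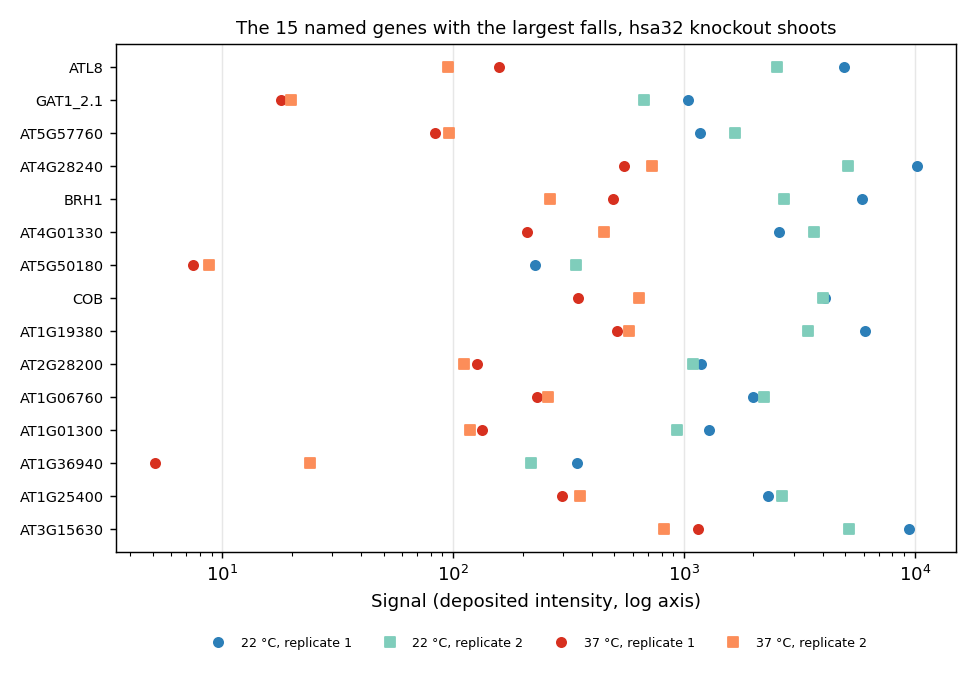
Signal on each of the 4 knockout arrays for the 15 genes with the largest falls, on a log axis of deposited intensity, with 1 row per gene and 1 point per array. The genes were chosen among those that passed with groups apart, so both heated arrays lie under both controls in every row by that rule. Replicates lie close together for AT2G28200 and AT1G06760.

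Some genes of the cell wall and of growth fell, in counts to be read against 3.66% of all tested probe sets that fell and their median of -0.26. Of 14 tested expansins out of 19, which loosen walls, 2 fell and 0 rose (median -0.44 over the 19). The list holds both root markers, EXPA18 at -0.44 and EXPA7, which was not tested, and their summed signal of 224 and 123 at 22 °C and 97.7 and 89.9 at 37 °C moved with it. The part of root tissue in these counts was not tested. EXPA4 read 341 and 414 at 22 °C and 4.80 and 81.7 at 37 °C and EXPA9 297 and 380.5 at 22 °C and 104 and 76.8 at 37 °C, with changes of -2.73 ± 0.66 (adjusted p = 0.044) and -1.62 ± 0.33 (adjusted p = 0.024). The heated replicates of EXPA4 were far apart, at 4.80 and 81.7, and its call was lost in 11 of 20 settings. Among 26 xyloglucan, pectin and cellulose genes 21 were tested, 2 fell and 0 rose (median -0.52). COB, an anchored protein that orients cellulose deposition, read 4087 and 4008 at 22 °C and 346 and 639 at 37 °C, with a change of -3.02 ± 0.64 (adjusted p = 0.028). CSLD2, a cellulose synthase-like gene, read 721 and 979 at 22 °C and 195 and 269.6 at 37 °C, with a change of -1.75 ± 0.44 (adjusted p = 0.049). The call of CSLD2 was lost in 12 of 20 settings. In this list 14 of 26 members had both heated arrays under both controls, against 40.9% of all tested probe sets. The auxin list had 1 faller among 9 tested of 13 (median -0.57). It was IAGLU, a glucosyltransferase of the auxin indole-3-acetic acid, at 1424 and 1752 at 22 °C and 335 and 534 at 37 °C, with a change of -1.83 ± 0.39 (adjusted p = 0.029). ARL (ARGOS-like), a gene of cell expansion, read 4456 and 4698 at 22 °C and 724 and 1070.4 at 37 °C and fell (-2.34 ± 0.52 (adjusted p = 0.035)). SIM (SIAMESE), an inhibitor of cyclin-dependent kinases, read 522 and 340.5 at 22 °C and 89.6 and 109 at 37 °C and fell (-1.82 ± 0.44 (adjusted p = 0.043)). KINESIN-13A, a motor protein gene in the cell cycle list, read 689 and 849 at 22 °C and 235 and 277 at 37 °C and fell (-1.48 ± 0.31 (adjusted p = 0.029)), as 1 of 6 tested of 10. None of 7 tubulin genes passed (median -0.42). The linker histone gene HIS1-3 (-1.87) and the core histone gene HTB4 (0.96) did not pass. Histone genes without a symbol in the tables were not in the list, so these values do not stand for linker or core histone genes as a group.

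Signalling and transcription genes fell singly, beside 3.66% of all tested probe sets that fell. WRKY22, a transcription factor of defence, read 2264 and 1086 at 22 °C and 266 and 161 at 37 °C, with a change of -2.76 ± 0.55 (adjusted p = 0.023), as 1 of 3 tested of 6 WRKY genes. BIK1, a kinase of immune receptors, read 699 and 751 at 22 °C and 139 and 188 at 37 °C and had a change of -1.98 ± 0.32 (adjusted p = 0.0093). ATMPK8, a mitogen-activated protein kinase, read 182 and 304 at 22 °C and 16.7 and 12.7 at 37 °C and had a change of -2.60 ± 0.34 (adjusted p = 0.0032). In these 3 genes the heated arrays lay well under the controls. RTE1, which acts with an ethylene receptor, fell (-1.62 ± 0.34 (adjusted p = 0.029)), as 1 of 2 in its list. The trihelix factor gene GT2 (-2.51), the zinc finger factor gene JKD (-2.22), the MADS-box gene AGL16 (-1.43) and the peptide gene CLE26 (-1.65) fell too. The call of AGL16 was lost in 10 of 20 settings and that of CLE26 in 9 of 19. The bZIP list moved both ways, with 2 risers and 1 faller among 14 tested of 21. BZIP61 read 1635 and 2056 at 22 °C and 180.0 and 336 at 37 °C and fell (-2.75 ± 0.50 (adjusted p = 0.016)), while bZIP58 rose by 1.51 beside BZIP28.

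Transport and metabolism had calls in both directions, in counts to be read against 3.13% of all tested probe sets that rose and 3.66% that fell. With 1 or 2 calls per direction these counts do not set a list apart from that share. In the sugar transporter list, 16 of 17 were tested, 1 rose and 2 fell (median -0.16). SWEET1 read 439 and 399 at 22 °C and 1324 and 2425 at 37 °C and rose by 2.02 ± 0.37 (adjusted p = 0.016). SWEET2, a vacuolar relative, read 1568 and 1345 at 22 °C and 466 and 267 at 37 °C, with a change of -1.95 ± 0.45 (adjusted p = 0.037), and TMT1, a sugar carrier of the vacuole membrane, read 628 and 538 at 22 °C and 61.5 and 163 at 37 °C, with a change of -2.21 ± 0.40 (adjusted p = 0.016). The groups of all 3 genes did not overlap, which held for every probe set that passed. The call of SWEET2 was lost in 10 of 20 settings, and those of SWEET1 and TMT1 in 4 each. In the NRT1/PTR family 1 of 11 rose and 1 fell. AT2G26690 (NRT1/PTR family 6.2) rose by 1.99 and GTR2, a glucosinolate transporter, had a change of -1.86. Of 52 UDP-glycosyltransferases 30 were tested, 2 rose (UGT73C1 and UGT76E11) and 2 fell (IAGLU and UGT76C1, the latter at -1.59). UGT76E11 rose by 2.00. UGT73C1 read 6.30 and 2.90 at 22 °C and 133 and 253 at 37 °C, and with controls under the offset its rise of 2.67 depends on it, at 1.33 with a pseudocount of 116 and 4.03 with 7.25. Its call was lost in 9 of 19 settings. Enzymes that fell singly included ALDH6B2, an aldehyde dehydrogenase of valine breakdown, from 5017 and 6263 to 1005 and 1117 (-2.37 ± 0.54 (adjusted p = 0.036)). FDH, the mitochondrial formate dehydrogenase, went from 8730.1 and 8985 to 2774 and 1963 (-1.91 ± 0.38 (adjusted p = 0.023)). MGL, a methionine gamma-lyase, had a change of -1.70, PPDK, pyruvate orthophosphate dikinase, one of -1.49, and CPI1, an isomerase of sterol synthesis, one of -1.49.

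Stress genes other than chaperones had single calls, beside 6.78% of all tested probe sets. Of 17 abscisic acid, cold and dehydration genes 13 were tested and 1 rose (median 0.31). The dehydrin gene COR47 read 7469 and 6486 at 22 °C and 20569 and 18911 at 37 °C and rose by 1.5 ± 0.34 (adjusted p = 0.036), and its call was lost in 7 of 20 settings. CML23, a calmodulin-like gene, read 91.4 and 43.6 at 22 °C and 308 and 259.5 at 37 °C and rose by 1.74 ± 0.39 (adjusted p = 0.036), as 1 of 7 tested calcium genes. TET2, 1 of 8 tested tetraspanins, which organise membrane domains, read 189 and 179.8 at 22 °C and 1846 and 2256 at 37 °C and rose by 3.28 ± 0.33 (adjusted p = 0.00065), whereas TET7 had a change of -1.47. VPS60.1, of the endosomal sorting machinery, rose by 1.88. None passed among 11 autophagy genes (median 0.04, with ATG8H highest at 1.46), 8 tested glutathione transferases (GSTU18 at 1.09), 12 tested cytochrome P450 genes (CYP71B22 at -1.75) or 10 tested chlorophyll and carotenoid genes. In the PRA1 family of vesicle transport 1 of 10 tested fell, PRA1.G2 at -1.83, a call lost in 12 of 20 settings. The family's median was -1.23, and 10 of its 11 members had both heated arrays under both controls, against 40.9% of all tested probe sets. In protein turnover, the conjugating enzyme gene UBC20 fell (-1.40 ± 0.35 (adjusted p = 0.048)) as 1 of 11 tested, 0 of 11 ubiquitin proteases passed (median -0.57), and the proteasome gene RPN12a did not pass at -0.09. In RNA processing 0 of 5 splicing genes passed (median -0.12), whereas THO7, a subunit of an mRNA export complex, had a change of -1.78 and TRZ1, a tRNA-processing nuclease, one of -1.48. Among calmodulin-binding IQ-domain genes 1 of 10 tested fell, IQD22 at 491 and 479.6 at 22 °C and 205 and 165 at 37 °C (-1.27 ± 0.30 (adjusted p = 0.04)), and 11 of all 15 had both heated arrays under both controls, beside the same 40.9%. The calls of TET7, UBC20 and IQD22 were each lost in 10 of 20 settings. The citrate cycle genes had 0 calls among 12 tested, with SDH2-2, a succinate dehydrogenase subunit, closest at 1.20 ± 0.32 (adjusted p = 0.058). Across all 85 lists, 16 had a riser, 23 had a faller and 53 had neither.

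**Figure D4:**
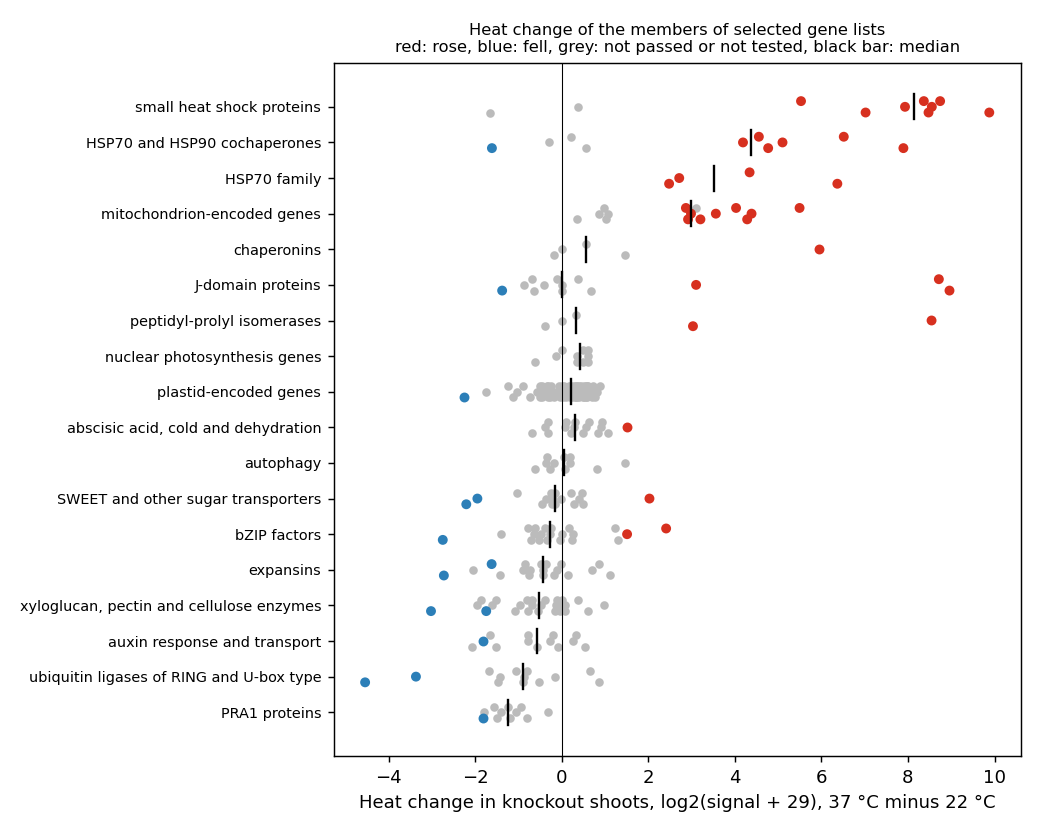
Heat change in knockout shoots, on the log2(signal + 29) scale, of each named member of selected gene lists, with 1 point per gene and a black bar at the list's median. Red points rose, blue points fell and grey points did not pass or were not tested, and the small heat shock proteins have the highest median, 8.15.

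Whether these changes differed from those of wild type was tested as the difference of the heat changes. Limma passed 0 of 15919 probe sets (0%), with 88 at an unadjusted p under 0.05. Evenly spread p-values would put a share of 0.05 of all probe sets there, and 88 is well under that share. This test thus gave few small p-values, and its 0 calls do not show that both genotypes responded alike. In wild type 406 probe sets passed (2.55%; 1.84% higher and 0.710% lower), of which 386 also passed in the knockout, 288 higher and 98 lower in both. That share was 35.7% of the knockout calls and 95.1% of the wild-type calls. The lists had the following wild-type medians. Small heat shock proteins had 7.58, cochaperones 3.70, the HSP70 family 2.83 and mitochondrial genes 2.31, against 8.15, 4.37, 3.53 and 2.98 in the knockout. Named genes that fell had a wild-type change that often did not pass, such as COB (-2.27), EXPA4 (-2.14) and WRKY22 (-1.77), but their differences between genotypes did not pass either. Among differences with the higher value in the knockout, AT5G20560, AT2G34400 and AT2G07732 had the smallest p. AT5G20560 rose in the knockout, from 25.1 and 38.3 to 154 and 123 (1.47 ± 0.34 (adjusted p = 0.038)), beside a wild-type change of -0.01. Among those with the lower value they were HSA32, AT1G14950 and AT3G45720. AT3G45720 fell in the knockout, with 161 and 102 at 22 °C and 11.2 and 14.7 at 37 °C (-1.91 ± 0.38 (adjusted p = 0.023)), beside 0.24 in wild type. All 6 differences had unadjusted p from 2.6e-05 to 0.02 and adjusted p of 0.42 or more.

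**Figure D5:**
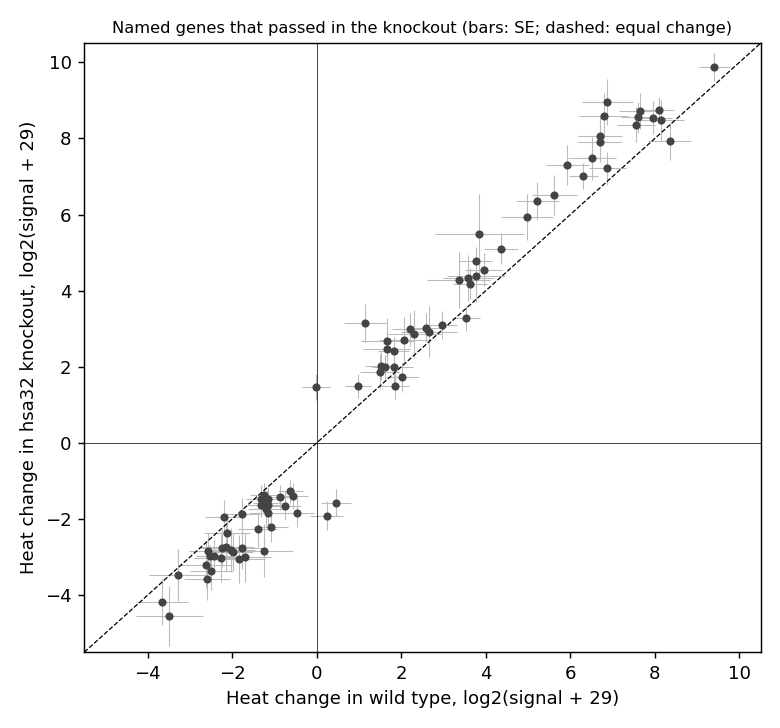
Heat change in the knockout (vertical axis) against heat change in wild type (horizontal axis) for the 84 named genes that passed in the knockout, both on the log2(signal + 29) scale, with bars of 1 SE and a dashed line of equal change. The points were chosen by the knockout result, so their distance from the line in the vertical direction is partly fixed by that choice.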

How the data were processed

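Labelled RNA from 8 pooled shoot samples was measured on 1-colour ATH1 arrays. The authors deposited a linear intensity for each probe set on each array. The sources used here do not state how they computed it. These intensities show a 2% trimmed mean from 499.85 to 500.54 on every array. Detection calls were not used. Titles gave each sample its group and replicate number. For wild-type control replicate 1 the title (control) and the source text (heat) disagree, and the title was used. On the first principal component this array stood at -52.1. Wild-type control replicate 2 stood at -63.0, and wild-type heat replicates 1 and 2 at 33.4 and 71.7. The labels give the replicates as biological samples from pools of plants. Precision is limited by the number of arrays.

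Of 22810 probe sets, 64 controls and the dimmest 30% (mean signal of 61.7 or lower) were left out, and 15919 were tested. Values were analysed as log2(signal + 29), 29 being the 20th percentile of all values. One mean per group over all 8 arrays was fitted with limma 3.58.1 under R 4.3.3, with moderation along a variance trend (4 residual and 4.79 prior degrees of freedom). P-values are two-sided and were adjusted by Benjamini and Hochberg's method over all tested probe sets. Tables were handled in Python 3.11.15 with pandas 2.3.3. The fit was also run on simulated data with independent noise on each array. That setting does not cover deviations shared by same-numbered arrays, so it does not bear on the replicate blocks.

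Probe sets were named from platform annotation updated through a RefSeq gene table. It gave 1 gene for 13513 probe sets, several for 503 and none for 8730. Where several probe sets read 1 gene, the brightest stood for it in a list. The members and lists were chosen with earlier results of these data known. Some lists were formed, and wrong matches removed by name, after the annotation was seen. The rule for named genes took HSA32, the 15 highest and 15 lowest changes among genes that passed with groups apart, up to 6 members of each list that passed (or the 2 smallest p), and the 3 smallest p of the genotype difference in each direction. Other genes named were chosen after their values were seen. No gene sequences were used, and a planned promoter motif search was not run. Alternatives covered the pseudocount (7.25 and 116), filter, scaling, floor of 16, error model, replicate blocks, and each array left out.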

Additional observations from a re-analysis of the deposited data

Results flagged for a closer look

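Only the 181 named genes were searched for opposite heat changes. In 4 of them the knockout arrays moved one way after heat and the wild-type arrays the other, with the groups apart in both genotypes. AT1G14950 and AT2G34400 had been named for the small p of their genotype difference. How many of all tested probe sets show this order was not counted. The difference itself was tested in limma over all probe sets, and it passed for 0 of them. HSA32 had a difference of -6.39 (unadjusted p = 2.6e-05, adjusted p = 0.42). AT1G14950, lower after heat in the knockout and higher in wild type, had one of -2.02 (adjusted p = 1). AT2G34400, higher in the knockout and lower in wild type, had one of 1.97 (adjusted p = 1). The jacalin lectin gene JAL34, higher in the knockout and lower in wild type, had one of 1.17 (adjusted p = 1).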

How the results depend on the processing

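The 1080 calls for heat in the knockout (498 higher, 582 lower) depended most on the arrays and on the error model. With the 4 knockout arrays alone 2433 passed (838 higher, 1595 lower), and without both arrays of wild-type replicate 1, a setting chosen after the data had been seen, 2424 passed (835 higher, 1589 lower). Leaving out 1 array at a time gave 230 to 2000 calls, 204 to 738 higher and 26 to 1263 lower. The lowest count was without knockout control replicate 1, followed by 240, 279 and 280 without the other knockout arrays (control replicate 2, heat replicate 1, heat replicate 2). The highest were without wild-type heat replicate 1 (2000) or replicate 2 (1996). Falls numbered 335 with no filter, 356 after quantile normalization and 226 after median centring. The labels do not say that a replicate number marks a shared batch. Deviations of same-numbered arrays correlated at 0.525 in the knockout and 0.542 in wild type, and with 2 pairs this does not settle a pairing. With the replicate block 3961 passed (1173 higher, 2788 lower). A crossed replicate block, added after the data had been seen, gave 297 (226 higher, 71 lower). The difference between genotypes passed for 0 probe sets, also with any 1 array left out (0 to 0), and for 1 with the replicate block and 1 without both arrays of wild-type replicate 1. Of the 84 named genes that passed, 27 did so under all 20 settings, 26 of 46 that rose and 1 of 38 that fell, and 0 changed direction. The cause of these dependences was not tested. With 2 arrays a group and no detection calls, changes of dim transcripts and small changes are poorly bounded.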
